A study of Mus musculus with 2 samples.

Results

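The genes described here are the collagens and a small set of stromal matrix genes, read in macrophages of the mouse peritoneum. The members were all protein-coding genes whose GENCODE M21 symbol is Col, digits, a, digits and nothing more, which gave 44 collagens, plus the 8 matrix genes Dcn, Lum, Bgn, Fbn1, Fbln1, Sparc, Lox and Postn. They made up 52 of the 55487 genes in the count table.

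Pooled sorted small peritoneal macrophages from 2 groups of mice were compared, each group sequenced as 1 library, so there were no replicates and no test was possible. The LPS+LCC-12 library came from 66967 cells of 8 male SWISS mice aged 5 weeks, given 20 mg/kg of lipopolysaccharide (LPS, a bacterial cell wall component that causes endotoxemia) and then 0.3 mg/kg of LCC-12, a compound that targets mitochondrial copper, after 6 h. The LPS library came from 102283 cells of 7 mice of the same age, sex and stock that had LPS without LCC-12. Saline at 30 mL/kg was given under the skin to every animal at 6 h, and death was at 22 h after LPS, so no library without LPS enters the comparison.

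Collagens are secreted proteins built of chains with long glycine-rich repeats that wind into triple helices. Fibroblasts and related stromal cells make most of the fibrillar collagens of a tissue, mesothelial and endothelial cells rest on a basement membrane of collagen IV, and macrophages are better known for binding and degrading collagen than for making it. Small leucine-rich proteoglycans such as decorin and lumican coat the fibrils, and lysyl oxidase, a copper-dependent enzyme, cross-links them.

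Total counts were 47721888 in the LPS+LCC-12 library and 50618409 in the LPS library. As a reading of macrophage RNA in general, 9 macrophage markers were counted, which does not check the label of small peritoneal macrophages. All 9 markers had 50 or more counts and none differed by 2-fold. Their summed level was 9063 CPM (counts scaled to a common library total) in the LPS+LCC-12 library and 7613 CPM in the LPS library. Neutrophil markers were also present, summing to 3040 and 8289 CPM in the LPS+LCC-12 and LPS libraries, and all 7 of them were at least 2-fold lower with LCC-12. Among 7 markers of small peritoneal macrophages, LCC-12 was accompanied by levels at least 2-fold higher for 6. Earlier results of these data were known when the marker lists were picked. The 6 of 7 may partly reflect that choice, so it is a description and not a check of the cell type. In these bulk pools, fewer cells of a type and less RNA per cell cannot be told apart.

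Collagen and stromal matrix transcripts were sparse in both libraries, and most chains that could be read were lower with LCC-12. The genes at least 2-fold lower were the fibrillar chains Col1a1, Col1a2, Col3a1, Col5a1 and Col11a2, the collagen VI chains Col6a1, Col6a2 and Col6a3, the collagens Col4a2, Col9a3 and Col28a1, and Sparc, with Col6a3 far below the others. Lox, Col27a1 and Col14a1 went the opposite way, and Col23a1 stayed level. The summed counts of all 52 genes were 3880 in the LPS+LCC-12 library, or 81.3 CPM (exact 95% binomial interval 78.8 to 83.9), and 5080 in the LPS library, or 100.4 CPM (97.6 to 103.2). Such intervals express counting error alone. PCR copies of a molecule may have been counted separately, as the counting tool is not given, and variation between mice was not measured. On the log2 scale and after TMM scaling of the library totals, the ratio of the sums, LPS+LCC-12 over LPS, was -0.34 (-0.40 to -0.28).

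That sum was shaped by 2 genes that moved in opposite directions. Lox held 43.1% (41.5 to 44.7) of the members' counts in the LPS+LCC-12 library and 16.8% (15.8 to 17.9) in the LPS library, and without it the ratio of the sums was -0.89. Col6a3 held 0.0515% and 9.65% of the members' counts in the LPS+LCC-12 and LPS libraries, and without it the ratio was -0.20. The 44 collagens alone summed to 2030 counts in the LPS+LCC-12 library and 3822 in the LPS library, a log2 ratio of -0.87 (-0.94 to -0.79).

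At least 1 count was present for 33 members in the LPS+LCC-12 library and 40 in the LPS library, and 8 members were at 0 in both, namely Col4a4, Col9a2, Col10a1, Col13a1, Col24a1, Col26a1, Lum and Bgn. Of all 55487 genes, 22879 had a count in the LPS+LCC-12 library and 24376 in the LPS library, which had the larger total. A further 13 members had at most 8 counts, 10 of them with counts in the LPS library alone and 3 in the LPS+LCC-12 library alone. Of 10 members with 10 to 49 counts in the higher library, 7 had the lower level with LCC-12 and 3 the higher one. How all genes split by direction in these low-count ranges was not counted, so the splits are a description only. The remaining 21 members had 50 or more. With LCC-12, 12 of these 21 genes were lower by 2-fold or more, 3 were higher by as much, and the other 6 differed less. The same limits were passed by 6.65% of all 13482 genes that reached 50 counts in either library in the lower direction and by 4.01% in the higher direction. Of the 11220 protein-coding genes among them, 4.46% were lower and 3.81% higher. With a minimum of 10 counts, 16 of 31 members were at least 2-fold lower and 6 higher, against 13.1% and 8.02% of all genes. The median log2 ratio was -1.09 over the 21 members and 0.02 over all 13482 genes. Because the minimum was applied to the higher library, many genes passed only through the library in which they were higher, so these counts and medians are a description of the genes that passed. Of the 12 lower members, 8 reached 50 counts in the LPS library alone (for all lower genes 43.9%), and Col4a2, Col5a1, Col9a3 and Col11a2 reached it in both libraries. Of the 3 higher members, Col14a1 reached it in the LPS+LCC-12 library alone. With the minimum set on the mean of both libraries, chosen after seeing the data, 9 of 17 members were lower and 3 higher, against 5.25% and 3.51% of all genes. The gene lists described after the members used the minimum in the higher library too. Members just past the minimum were Col28a1, Col18a1 and Col6a1, with 56, 56 and 58 counts in the LPS library, and those just short of it were Col4a1, Fbn1 and Col6a5, with 47, 44 and 34.

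**Figure D1:**
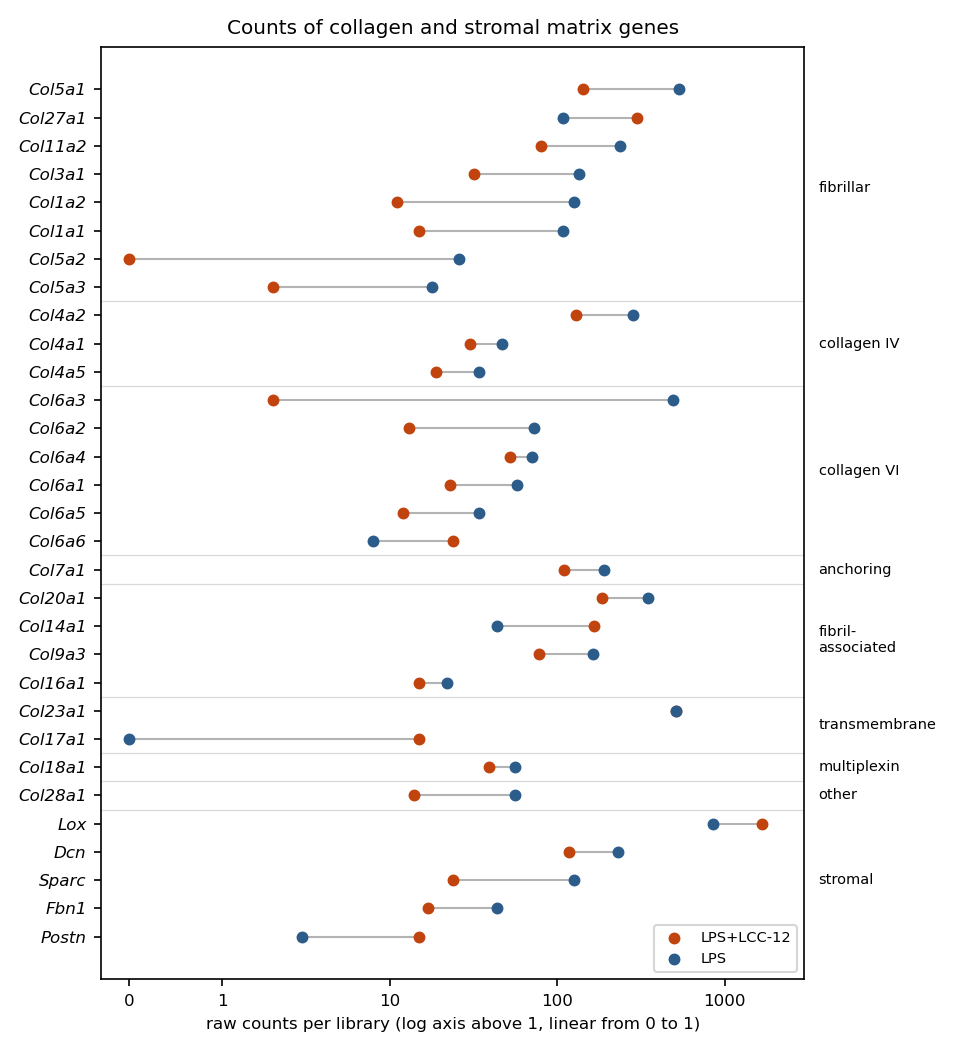
Raw counts (horizontal axis, log above 1 and linear from 0 to 1) of the 31 members that reached 10 counts in either library, grouped by class, with 1 point per library and no error bars. LPS+LCC-12 points lie left of LPS points for most chains, with Col6a3 at 2 against 490 counts. They lie right of them for Lox, Col27a1, Col14a1, Col6a6, Col17a1 and Postn, and slightly right for Col23a1.

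The sequences upstream of 4 members are shown because Col6a3 had the largest difference, Col1a2 and Col3a1 encode chains of the most common fibrillar collagens, and Col27a1 was the member higher with LCC-12 that had a window in the RefSeq table. They are the 250 bases before the RefSeq start on GRCm38.p6, read 5′ to 3′ in the direction of the gene. Capitals mark TATAAA or CCAAT, searched on both strands; these motifs do not overlap each other in the windows shown. The windows lie at chr1:90843972-90844221 on the minus strand for Col6a3, at chr6:4505368-4505617 on the plus strand for Col1a2, at chr1:45311288-45311537 on the plus strand for Col3a1 and at chr4:63215162-63215411 on the plus strand for Col27a1.
Col6a3: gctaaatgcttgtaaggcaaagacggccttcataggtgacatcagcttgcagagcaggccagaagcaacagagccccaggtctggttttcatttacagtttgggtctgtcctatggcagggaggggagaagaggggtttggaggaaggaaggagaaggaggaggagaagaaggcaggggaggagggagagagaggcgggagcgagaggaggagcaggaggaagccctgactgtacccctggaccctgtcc
Col1a2: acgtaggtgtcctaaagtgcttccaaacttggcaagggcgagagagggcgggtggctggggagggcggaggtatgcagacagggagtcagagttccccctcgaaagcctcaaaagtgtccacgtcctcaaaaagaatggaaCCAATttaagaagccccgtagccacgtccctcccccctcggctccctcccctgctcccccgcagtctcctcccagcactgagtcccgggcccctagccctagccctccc
Col3a1: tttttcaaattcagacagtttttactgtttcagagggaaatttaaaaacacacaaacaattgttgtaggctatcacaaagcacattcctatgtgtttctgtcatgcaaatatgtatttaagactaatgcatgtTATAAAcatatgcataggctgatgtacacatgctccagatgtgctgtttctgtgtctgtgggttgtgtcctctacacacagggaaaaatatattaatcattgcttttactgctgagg
Col27a1: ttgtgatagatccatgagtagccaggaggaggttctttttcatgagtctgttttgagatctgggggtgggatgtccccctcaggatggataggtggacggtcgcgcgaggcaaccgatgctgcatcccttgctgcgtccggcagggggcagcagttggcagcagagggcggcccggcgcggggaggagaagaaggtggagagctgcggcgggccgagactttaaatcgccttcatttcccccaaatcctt
In Col1a2 the CCAAT begins 109 bases before the RefSeq start, and in Col3a1 the TATAAA begins 117 bases before it. Neither motif is in the windows of Col6a3 and Col27a1. RefSeq and GENCODE place the start 804 bases apart for Col1a2 and 1408 bases apart for Col27a1, and at the same base for Col6a3 and Col3a1. RefSeq windows were matched for 16 of the 21 members with 50 or more counts; Col1a1, Col9a3, Col14a1, Dcn and Lox had none. TATAAA was in the windows of 2 of the 16, against 12.4% of all 32851 windows, and CCAAT in those of 5, against 33.8%.

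Fibrillar collagens form the banded fibres of connective tissue. Of the 11 genes, 6 had 50 or more counts, of which 5 were at least 2-fold lower with LCC-12 and 1, Col27a1, was higher. Col1a2, the alpha 2 chain of collagen I (chromosome 6, 4504814 to 4541544, GRCm38), had 11 counts in the LPS+LCC-12 library and 126 in the LPS library, a log2 ratio of -3.41 (-4.51 to -2.58). Col1a1, which encodes the partner chain (chromosome 11, 94936224 to 94953042), had 15 and 109 counts in the LPS+LCC-12 and LPS libraries, a log2 ratio of -2.77 (-3.70 to -2.03). The intervals of these partner chains overlap. Col3a1, the single chain of collagen III, which is common in soft organs (chromosome 1, 45311538 to 45349706), had 32 counts with LCC-12 and 135 with LPS alone, a log2 ratio of -2.01 (-2.63 to -1.47).

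Collagen V nucleates collagen I fibrils, and each of its 3 chain genes had fewer counts with LCC-12. Col5a1 (chromosome 2, 27886425 to 28039514) was the collagen with the most counts in the LPS library, with 142 counts in the LPS+LCC-12 library and 537 in the LPS library and a log2 ratio of -1.87 (-2.15 to -1.60). Its partners were below the minimum: Col5a2 had 0 and 26 counts and Col5a3 had 2 and 18 counts in the LPS+LCC-12 and LPS libraries. Col11a2, a chain of the cartilage collagen XI, had 80 counts with LCC-12 and 236 with LPS alone, a log2 ratio of -1.51 (-1.90 to -1.14), whereas Col11a1 and Col2a1, the other main cartilage genes of the class, had 2 counts or fewer in either library. Col27a1, a fibrillar collagen best known from cartilage (chromosome 4, 63214004 to 63334991), had 302 and 109 counts in the LPS+LCC-12 and LPS libraries, a log2 ratio of 1.51 (1.20 to 1.85). Its nearest protein-coding gene after it by coordinate, Orm1, lies 9.57 kb away and had 1352 counts with LCC-12 and 3633 with LPS alone, so the neighbours differed in opposite directions.

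Collagen VI forms beaded filaments next to cells, and its common form joins the alpha 1, alpha 2 and alpha 3 chains. Col6a3, the alpha 3 chain (chromosome 1, 90765923 to 90843971), had 2 counts in the LPS+LCC-12 library and 490 in the LPS library, a log2 ratio of -7.57 (-10.94 to -6.03). Col6a2 had 13 and 73 counts, for a log2 ratio of -2.40 (-3.42 to -1.58), and Col6a1 had 23 and 58 counts, for a log2 ratio of -1.27 (-2.05 to -0.57), each with the LPS+LCC-12 library first. The counting interval of Col6a3 lies wholly below those of both partner chains. Corrected for exon length, Col6a3 had 0.00442 TPM (a level scaled by exon length and then to a common total), Col6a2 0.0412 and Col6a1 0.139 in the LPS+LCC-12 library. The levels in the LPS library were 0.952, 0.204 and 0.308 TPM in the same order of genes. Col6a3 was the lowest of the 3 chains per length in the LPS+LCC-12 library and the highest in the LPS library.

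The nearest protein-coding genes on either side of Col6a3 did not show a difference of that size. Cops8, 152.6 kb before it by coordinate, had 1204 counts with LCC-12 and 1358 with LPS alone, and Mlph, 71.1 kb after it, had 8 and 15. Gm36970, a transcript model of unknown status on the same strand that lies inside Col6a3 and shares no exon base with it, had 0 counts in the LPS+LCC-12 library and 24 in the LPS library. The remaining chains are encoded in tandem on chromosome 9 and differed less than Col6a3. Col6a4 had 52 counts with LCC-12 and 71 with LPS alone, for a log2 ratio of -0.40 (-0.95 to 0.13). Col6a5 had 12 and 34 counts and Col6a6 had 24 and 8 counts, each with the LPS+LCC-12 library first.

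**Figure D2:**
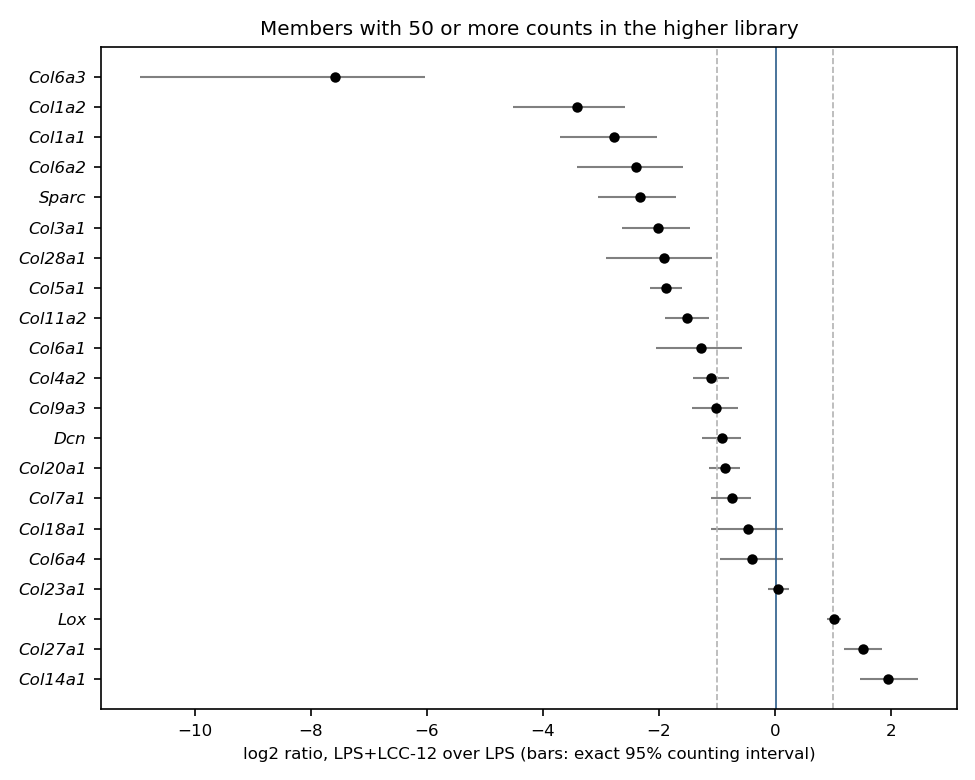
Log2 ratio of LPS+LCC-12 over LPS (horizontal axis) for the 21 members that reached 50 counts in either library; points are single ratios, bars are exact 95% counting intervals, dashed lines mark 2-fold and the solid line is the median of all 13482 genes at 0.02. Most members lie left of that line, Col6a3 at -7.57, and Lox, Col27a1 and Col14a1 lie at or beyond 2-fold on the right.

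Basement membrane collagen IV lies under epithelia, mesothelium and endothelium. Col4a2 had 129 counts in the LPS+LCC-12 library and 285 in the LPS library, a log2 ratio of -1.09 (-1.41 to -0.79). Its partner Col4a1, read from the opposite strand, had 30 and 47 counts in the LPS+LCC-12 and LPS libraries, and the genes share 22 exon bases at their starts. Col4a5 had 19 counts with LCC-12 and 34 with LPS alone. The remaining chains, Col4a3, Col4a4 and Col4a6, had at most 1 count. Col7a1, which forms anchoring fibrils of the skin, had 110 and 191 counts in the LPS+LCC-12 and LPS libraries, a log2 ratio of -0.75 (-1.10 to -0.40), within 2-fold. The network collagens Col8a1 and Col8a2 had 0 counts with LCC-12 and 5 and 3 with LPS alone.

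Fibril-associated collagens have interrupted helices and sit on the surface of fibrils, and these genes differed in both directions. Col14a1, which binds collagen I fibrils, had 165 counts with LCC-12 and 44 with LPS alone, a log2 ratio of 1.94 (1.47 to 2.47). It is often used as a fibroblast marker. Col20a1 had 186 and 350 counts, for a log2 ratio of -0.86 (-1.13 to -0.60), and shares 79 exon bases with BX649560.1 on the same strand, which had 290 and 424 counts, all with the LPS+LCC-12 library first. Col9a3, a chain of the cartilage collagen IX, had 78 counts with LCC-12 and 164 with LPS alone, a log2 ratio of -1.02 (-1.43 to -0.63), while its partners Col9a1 and Col9a2 had at most 1 count. The ratio of Col9a3 was -0.98 when scaled by total counts, short of 2-fold, and 6.07% of its exon bases are shared with Tcfl5 on the opposite strand, which had no counts. Its neighbour Ogfr, 1.95 kb away, had 3142 counts with LCC-12 and 5744 with LPS alone. Col16a1 was below the minimum at 15 and 22 counts in the LPS+LCC-12 and LPS libraries. Col12a1 and Col22a1 each had 0 counts with LCC-12 and 8 with LPS alone, and Col19a1 had 0 and 3.

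Transmembrane collagens are held in the cell membrane, and 1 of them was the most level gene of the set. Col23a1 (chromosome 11, 51289920 to 51583918) had 515 counts in the LPS+LCC-12 library and 510 in the LPS library, and its log2 ratio was 0.06 with a counting interval that includes 0 (-0.12 to 0.24). Per length it was the highest collagen in both libraries, at 2.37 TPM with LCC-12 and 2.07 TPM with LPS alone. Col17a1, an epithelial collagen, had 15 and 0 counts in the LPS+LCC-12 and LPS libraries, and Col25a1 had 0 and 1. Of the multiplexins, Col18a1, the precursor of endostatin, had 39 and 56 counts, for a log2 ratio of -0.47 (-1.10 to 0.14), with the LPS+LCC-12 library first, and Col15a1 had 3 and 0. Col28a1, a collagen with von Willebrand factor domains, had 14 counts with LCC-12 and 56 with LPS alone, a log2 ratio of -1.92 (-2.91 to -1.09).

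The 8 stromal genes did not move as a block. Lox, lysyl oxidase (chromosome 18, 52516067 to 52529867), had the most counts of all 52 genes, 1672 in the LPS+LCC-12 library and 855 in the LPS library, and the highest level per length, 9.24 TPM with LCC-12 and 4.16 TPM with LPS alone. Its log2 ratio of 1.01 (0.89 to 1.13) sits at the 2-fold limit, and it was 0.99 when scaled by DESeq2 size factors. Sparc, a collagen-binding glycoprotein, had 24 counts with LCC-12 and 126 with LPS alone, a log2 ratio of -2.32 (-3.04 to -1.71). Dcn, decorin, had 118 and 230 counts in the LPS+LCC-12 and LPS libraries, a log2 ratio of -0.91 (-1.25 to -0.59), just inside 2-fold. Fbn1, the microfibril protein fibrillin, had 17 and 44 counts with the LPS+LCC-12 library first, and 20.1% of its exon bases are shared with Gm9913 on the opposite strand, which had no counts. Postn, periostin, had 15 counts with LCC-12 and 3 with LPS alone, and Fbln1 had 4 and 0. Lum and Bgn, which encode lumican and biglycan, were at 0 in both libraries, which allows up to 0.0629 CPM in the LPS+LCC-12 library and 0.0593 in the LPS library.

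Markers of cells that make matrix were also counted, and their part in the differences was not tested. Of 13 fibroblast markers outside the set, only 3 reached 50 counts and 4 were at 0 in both libraries, namely Dpt, Clec3b, Mfap5 and Tcf21. Fap, a membrane protease of activated fibroblasts, had 89 counts with LCC-12 and 439 with LPS alone, a log2 ratio of -2.25 (-2.60 to -1.93). Pdgfra, the receptor that defines many fibroblasts, had 0 and 18 counts in the LPS+LCC-12 and LPS libraries, and Pdgfrb had 122 and 139. Thy1, a surface glycoprotein of fibroblasts and T cells, went the other way below the minimum, with 30 counts with LCC-12 and 4 with LPS alone, a log2 ratio of 2.80 (1.45 to 4.92). Dpep1 had 5 and 0 counts and Serpinf1 had 4 and 0, while Cdh11 had 0 and 7 and Islr 0 and 1, with the LPS+LCC-12 library first. The list summed to 21.1 CPM in the LPS+LCC-12 library and 25.1 in the LPS library, mainly from Pi16 with 759 and 663 counts. Pi16 had a log2 ratio of 0.24 (0.09 to 0.39), opposite to the sum, so the sum says little about the other markers of the list.

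Mesothelial markers, of the cells that line the peritoneum, summed to 4.19 CPM in the LPS+LCC-12 library and 11.8 in the LPS library. Of the 5 with 50 or more counts, 4 were at least 2-fold lower, beside 6.65% of all 13482 genes. Those 4 reached 50 counts in the LPS library alone, and Krt7, which reached it in both, had 127 counts with LCC-12 and 202 with LPS alone, a log2 ratio of -0.62 (-0.96 to -0.30). Of the lower ones Krt8, a simple epithelial keratin, had 3 and 101 counts, Krt18 1 and 54, and Krt19 28 and 78. Upk3b, a mesothelial membrane protein, had 31 and 129, all with the LPS+LCC-12 library first. Wt1 and Msln had at most 12 counts in either library. Gpm6a went the other way below the minimum, with 7 counts with LCC-12 and 3 with LPS alone. Smooth muscle and pericyte markers summed to 11.2 and 30.5 CPM in the LPS+LCC-12 and LPS libraries, of which Acta2, smooth muscle actin, gave 449 and 1394 counts, and Des, Notch3 and Actg2 were at 0 in both. Endothelial markers summed to 2.87 CPM with LCC-12 and 2.25 with LPS alone, a log2 ratio of 0.31 with an interval that includes 0 (-0.06 to 0.68). Only 1 of the 8 reached 50 counts, Cdh5 with 62 and 33, while Vwf had 16 and 36, with the LPS+LCC-12 library first. Adipocyte markers summed to 19 counts with LCC-12 and 2 with LPS alone, with Adipoq at 0 in both. Markers of mast cells summed to 5.38 and 15.0 CPM and of B cells to 81.4 and 64.5, with the LPS+LCC-12 library first. Platelet markers summed to 142.5 CPM with LCC-12 and 56.0 with LPS alone, nearly all of it from Pf4, with 6702 and 2691 counts. Without Pf4 the platelet markers summed to 97 counts in the LPS+LCC-12 library and 144 in the LPS library, with Tubb1 at 28 and 76.

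**Figure D3:**
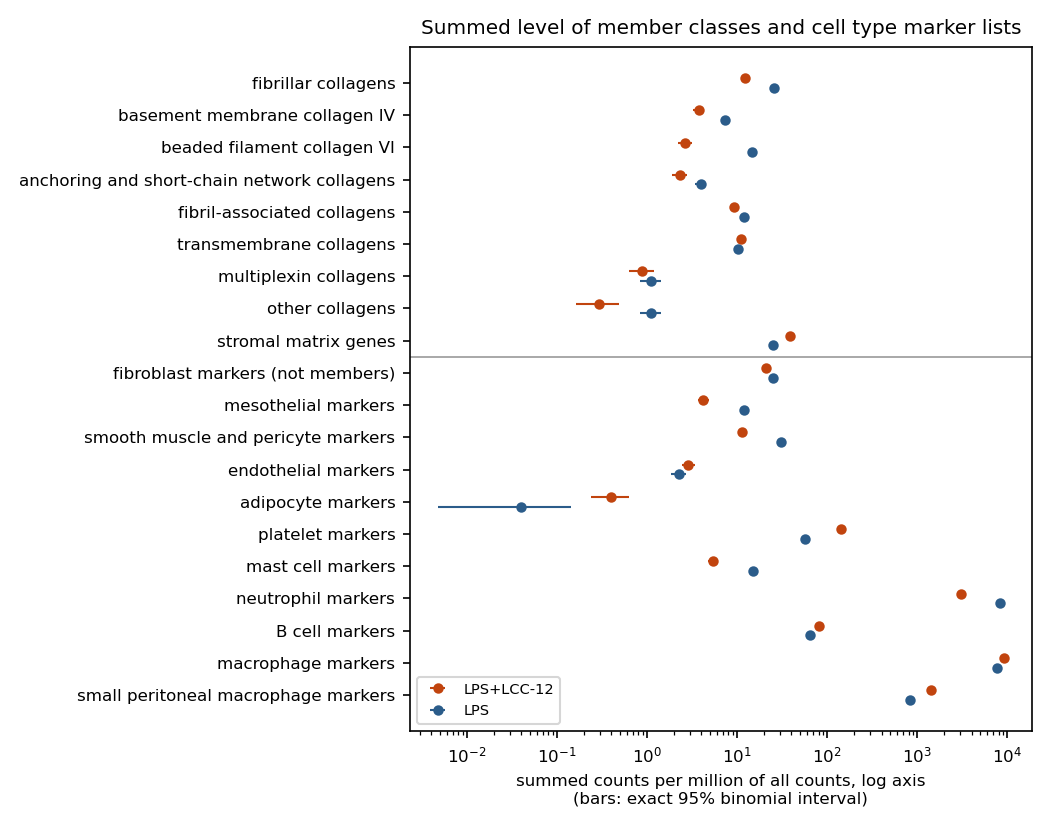
Summed level in CPM (horizontal axis, log scale) for the classes of members above the grey line and for cell type marker lists below it; points are single libraries and bars are exact 95% binomial intervals. Collagen VI sits at 2.64 in the LPS+LCC-12 library and 14.5 in the LPS library, and mesothelial markers at 4.19 and 11.8. Col6a3 gave 2 of the 126 collagen VI counts in the LPS+LCC-12 library and 490 of the 734 in the LPS library. Col6a6, of the same class, went the other way with 24 and 8 counts.

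Genes that make, bind and degrade collagen were read beside the members. The counts in these lists stand beside 6.65% lower and 4.01% higher by at least 2-fold over all 13482 genes, and in lists this small they are a description only. Of 30 genes for collagen synthesis and processing, 16 had 50 or more counts, of which 2 were at least 2-fold lower with LCC-12 and none was higher. Those were Plod2, a lysyl hydroxylase that acts on collagen, with 49 counts with LCC-12 and 261 with LPS alone and a log2 ratio of -2.36 (-2.84 to -1.92), and Serpinh1, the collagen chaperone, with 18 and 58 counts in the LPS+LCC-12 and LPS libraries and a log2 ratio of -1.62 (-2.49 to -0.86). The prolyl hydroxylase subunits P4ha1 and P4hb, which also serve other proteins, had log2 ratios of 0.03 and 0.11. The list's median log2 ratio was 0.04, beside 0.02 over all genes.

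Other matrix proteins differed in both directions, with 3 of 18 genes at least 2-fold lower, 4 at least 2-fold higher and a median log2 ratio of 0.10. Fn1, fibronectin, an adhesive matrix protein that macrophages make, had 515430 counts with LCC-12 and 155522 with LPS alone, a log2 ratio of 1.77 (1.77 to 1.78), many times the counts of all collagens together. Nid2, a basement membrane linker, and Ltbp3, a binding protein of latent TGF-beta, had log2 ratios of 2.29 (1.90 to 2.73) and 1.81 (1.61 to 2.03). Lama5, a laminin chain of basement membranes, had 23 and 66 counts in the LPS+LCC-12 and LPS libraries and a log2 ratio of -1.46 (-2.23 to -0.77).

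Among 7 collagen receptor genes with 50 or more counts, 2 were at least 2-fold higher and 1 was lower, with a median log2 ratio of 0.32. Mrc1, the mannose receptor of macrophages, which binds collagen and takes it up, had 9694 counts with LCC-12 and 2922 with LPS alone, a log2 ratio of 1.78 (1.72 to 1.84), and Ddr1, a collagen-binding kinase, had 110 and 37, a log2 ratio of 1.60 (1.07 to 2.20). Gp6, the platelet collagen receptor, had 21 and 74 counts in the LPS+LCC-12 and LPS libraries, a log2 ratio of -1.75 (-2.54 to -1.06). Of 7 genes of matrix degradation past the minimum, Ctsk, a collagen-cleaving cathepsin, was higher with 126 and 46 counts, and Mmp8, the neutrophil collagenase, was lower with 15924 and 81324 counts, each with the LPS+LCC-12 library first, and the list's median log2 ratio was 0.14. All 14 genes of the TGF-beta pathway, a main inducer of collagen genes in fibroblasts, passed the minimum, and 12 of them were within 2-fold. The list's median was -0.02. The exceptions were its ligands Tgfb2, with 1410 counts with LCC-12 and 551 with LPS alone and a log2 ratio of 1.40 (1.26 to 1.55), and Tgfb3, with 16 and 101 counts in the LPS+LCC-12 and LPS libraries and a log2 ratio of -2.58 (-3.47 to -1.84).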

How the data were processed

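RNA of 2 pools of sorted macrophages was sequenced. From each pool, 10 ng of RNA went, per the labels' protocols, into a stranded low-input library with ribosomal depletion and 12 PCR cycles, read as pairs of 100 bp. The table as deposited holds raw, unnormalized gene counts. Alignment with STAR to mm10 is stated per the submitters' processing notes. Counting tool, strand setting and annotation: not given in the sources used here.

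Symbols, coordinates and exon lengths came from GENCODE M21 (GRCm38) by gene ID, and 55394 of 55487 IDs matched. TMM scaling used edgeR 4.0.16 under R 4.3.3. A prior of 0.5 counts, adjusted to library size, was added before log2 ratios of LPS+LCC-12 over LPS were taken. Intervals are exact 95% Clopper-Pearson intervals of the split of counts. A 2-fold difference was counted where the higher library had at least 50 counts. TPM was computed from counts and union exon length, to compare genes within a library. The ratio and interval code was tested on simulated data. Members with 10 or more counts were named; in each other list, named genes were up to 4 past 2-fold with the largest ratios, or the 2 with the most counts, and further genes were named after their values were seen. The members and lists were chosen with earlier results of these data known. Alternatives were 4 other scalings (DESeq2 1.42.0 among them), 5 added counts, other count and fold limits, thinning of the deeper library and leaving Lox or Col6a3 out of the sum.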

Additional observations from a re-analysis of the deposited data

How the results depend on the processing

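With 1 library per group, no replicate could be left out, and no difference was set against variation between mice. No paired analysis was possible because each group had 1 library. The number of members at least 2-fold lower was 12 of 21 and ranged from 11 to 12 over the 4 other scalings, 5 added counts and thinning. Col9a3 was the gene lost, at -0.98 by total counts, -0.96 by totals without the most abundant genes and -0.98 with 5 added counts. With count minimums of 1 and 200 it became 26 of 44 and 4 of 9, where 24.2% and 4.18% of all genes were lower. With limits of 1.5-fold and 3-fold it was 15 and 8 of 21, where 13.3% and 2.52% of all genes were lower. With the whole counting interval required beyond 2-fold it was 9 of 21, against 3.86% of all genes. The number at least 2-fold higher was 3. It became 9 of 44 and 6 of 31 with count minimums of 1 and 10, where 15.5% and 8.02% of all genes were higher. With a limit of 3-fold it was 1, against 1.45% of all genes, and with the whole interval beyond 2-fold it was 2, against 2.22%. It was 2 under DESeq2 and upper quartile scaling, where Lox had log2 ratios of 0.99 and 0.98. The ratio of the summed counts moved to -0.89 without Lox and to -0.20 without Col6a3. With 50 counts required of the mean of both libraries, an alternative chosen after seeing the data, 9 of 17 members were lower, 3 were higher and the median was -1.02. The median log2 ratio ranged from -1.36 to -0.91 over its alternatives. None of the 126 values of the 21 members under other scalings, 5 added counts and thinning left the member's counting interval or changed sign where it was past 2-fold. The other scalings shift all genes nearly alike, and moved the median over all genes from 0.023 to between -0.011 and 0.083. Such shifts are small beside even the interval of Lox (0.89 to 1.13), so for the scalings this outcome in the members could hardly have differed. Over 58 named genes, the 21 members among them, 24 of 348 values left the gene's counting interval, all in genes outside the members. Fn1 was one of these, with log2 ratios from 1.741 to 1.835 over the other scalings against an interval of 1.77 to 1.78. For genes with many counts, the interval is thus narrower than the effect of scaling. Depth limits the members with under 50 counts, for which counts alone were given.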
